A study of Mus musculus with 8 samples.

Results

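Type I interferon response genes are the genes that cells switch on when interferon alpha or beta binds its receptor, and 38 of them, listed by symbol, were followed here in CD4 T cells from spleens of mice with and without the aryl hydrocarbon receptor gene Ahr. Of the 38, 31 had a probe set of their own on the array, among 12393 named genes measured. The list goes by gene function. Where a gene had several probe sets (groups of short probes for 1 stretch of transcript), the one with the highest mean over all arrays was used. Isg15, whose 1 probe set is shared with another gene, and Ddx58, Oas1g, Xaf1, Ifi44, Ly6a and Ly6e were not analysed here.

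Cells were FACS-sorted splenic CD4 T cells, and the donors were females of 8 to 12 weeks. The 4 groups were Ahr knockout (KO) mice on a background backcrossed to C57BL/6 given TCDD, KO mice given DMSO, wild type (WT) C57BL/6 mice given TCDD and WT mice given DMSO. TCDD, a persistent dioxin and a strong ligand of the receptor, was injected intraperitoneally at 10 µg/kg, DMSO is its solvent, both agents were carried in corn oil, and all mice were killed 24 h later. Each group had 2 arrays, and each array held RNA pooled from 4 animals, so the spread between arrays is one between pools and not between single animals. All values are log2 expression levels normalized by the authors, on which a difference of 1 is a 2-fold change.

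Type I interferons signal through the receptor chains Ifnar1 and Ifnar2 to the kinases Jak1 and Tyk2, which activate the transcription factor Stat2. Together with Irf9 it takes part in a complex that binds the interferon-stimulated response element (ISRE), a pair of GAAA repeats, in the promoters of antiviral genes. Interferon gamma, a product of T cells and natural killer cells, acts through a separate receptor and on another element, the gamma-activated site (GAS). Many antiviral genes respond to both, and the guanylate-binding proteins, the immunity-related GTPases and the immunoproteasome subunits are known mainly as strong responders to interferon gamma.

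The promoters of 4 measured members that held an ISRE core are shown. These members had the 2 most negative and the 2 most positive KO minus WT differences among those whose promoter in the RefSeq table (assembly GRCm38.p6) held that core. Each runs 5′ to 3′ on the gene's strand, from 250 bases before to 50 bases after the annotated start, and the capitals mark the ISRE core, GAAA followed by any 2 bases and GAAA, as read on either strand. Gbp2 lies at chr3:142620413-142620712 on the plus strand, Ifit1 at chr19:34640639-34640938 on the plus strand, Oas1a at chr5:120907476-120907775 on the minus strand and Stat2 at chr10:128270248-128270547 on the plus strand.
Gbp2: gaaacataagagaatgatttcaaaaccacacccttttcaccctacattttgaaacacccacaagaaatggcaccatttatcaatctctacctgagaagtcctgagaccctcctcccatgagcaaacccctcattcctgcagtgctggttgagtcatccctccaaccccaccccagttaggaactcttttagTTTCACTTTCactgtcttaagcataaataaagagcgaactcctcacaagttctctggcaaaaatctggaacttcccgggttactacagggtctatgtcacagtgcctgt
Ifit1: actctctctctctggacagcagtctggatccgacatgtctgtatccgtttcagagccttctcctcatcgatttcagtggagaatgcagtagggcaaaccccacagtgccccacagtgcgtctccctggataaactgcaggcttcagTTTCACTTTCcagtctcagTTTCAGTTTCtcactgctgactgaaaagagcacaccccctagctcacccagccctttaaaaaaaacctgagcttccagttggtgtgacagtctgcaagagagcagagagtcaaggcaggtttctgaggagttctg
Oas1a: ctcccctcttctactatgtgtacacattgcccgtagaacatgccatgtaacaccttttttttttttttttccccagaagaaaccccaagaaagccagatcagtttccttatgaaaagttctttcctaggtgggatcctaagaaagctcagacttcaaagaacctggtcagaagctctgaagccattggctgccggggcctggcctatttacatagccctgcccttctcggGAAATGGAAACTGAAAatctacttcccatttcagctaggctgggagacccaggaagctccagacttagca
Stat2: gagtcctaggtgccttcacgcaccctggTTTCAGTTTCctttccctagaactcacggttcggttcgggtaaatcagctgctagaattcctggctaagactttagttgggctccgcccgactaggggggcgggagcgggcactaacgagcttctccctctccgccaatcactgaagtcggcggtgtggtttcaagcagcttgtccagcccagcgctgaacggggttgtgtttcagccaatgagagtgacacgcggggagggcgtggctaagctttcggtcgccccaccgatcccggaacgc

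Oas1a carried 2 overlapping ISRE cores that began at −20 and −14 relative to the start and read on the gene's own strand, and a GAS core (TTCNNNGAA) at −98. Ifit1 carried 2 ISRE cores, at −104 and −85, and Gbp2 and Stat2 carried 1 each, at −59 and −222, all 4 on the other strand. Among the measured members with a promoter in the table, 12 of 22 (54.5%) held an ISRE core, against 3.99% of 27025 genes and 3.44% of 32851 promoters. A GAS core stood in 6 of 22 (27.3%), against 9.55% of genes and 8.3% of promoters, and GCGTG, the core of the element bound by the aryl hydrocarbon receptor, in 7 of 22 (31.8%), against 35.2% of genes and 32.4% of promoters, each motif read on both strands. A match is a string of letters and not a measured binding site. Neither promoter of Ifit2, the member with the largest KO minus WT difference in size, held an ISRE core in this window.

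Between the genotypes, of the 31 members 3 rose in KO and 0 fell: Ifi27l2a by 0.74, Oas1a by 0.60 and Zbp1 by 0.54 on the log2 scale. That is 9.68% of the members, against 3.24% called among the 12393 genes by the same choice of probe set (1.9% higher and 1.33% lower) and 2.79% of all 22626 probe sets. Called means a limma p under 0.05 after Benjamini-Hochberg (BH) adjustment over all probe sets, and every adjusted p given here is of this kind. The shares over all genes and probe sets take in dim probe sets. Among probe sets at or above the median level alone, 3 of 28 members and 884 of 11314 probe sets were called. At an unadjusted p under 0.05 there were 12 members (38.7%), against 22.2% of genes and 20.5% of all probe sets. Of these 12, 7 were higher and 5 lower in KO, and among all genes 10.6% were higher and 11.6% lower at that level. The members did not lean one way: 13 differences were above 0 (50.6% of genes were), 17 below (48.8% of genes) and 1, that of Rsad2, at 0. Their median was −0.03, against 0.005 over all genes.

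**Figure D1:**
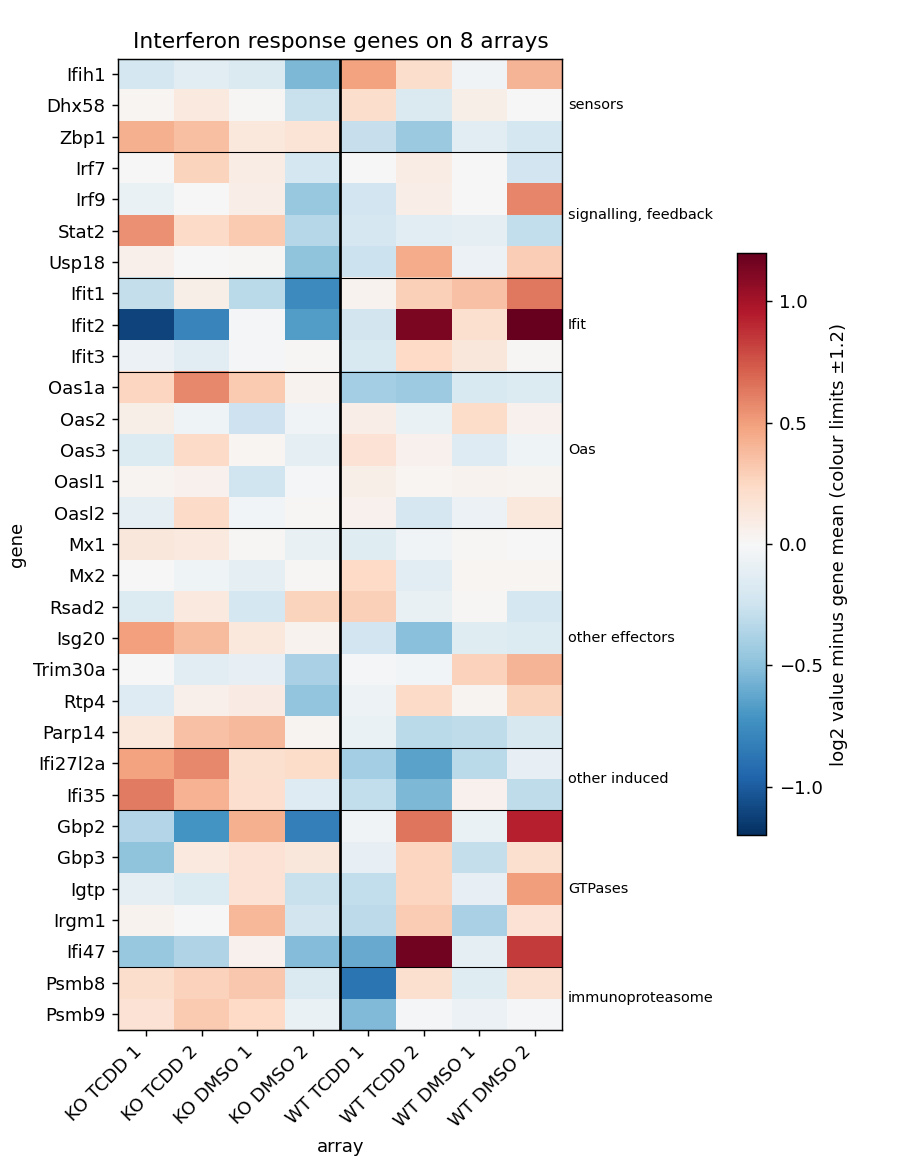
Log2 value of each of the 31 members (down the page, grouped by role) on each of the 8 arrays (across), as the difference from that gene's mean, with KO arrays left of WT arrays. Ifi27l2a, Oas1a, Zbp1, Isg20 and Parp14 are above their means in KO, Ifit2 and Ifih1 below, and the WT arrays numbered 2 hold the highest values of Ifi47 (11.33 and 11.01).

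The arrays differed in measures of quality. The correlation between arrays of a group ran from 0.967 to 0.992 and that between genotypes from 0.937 to 0.989. The actin control, whose 3′ minus 5′ log2 difference grows as RNA is shortened, was at 3.48 to 3.82 in KO and at 2.90 to 4.56 in WT. Its lowest values, 3.30 and 2.90, were those of the WT TCDD and WT DMSO arrays numbered 2, and its highest was that of WT TCDD replicate 1, which is wild type by its title, source and strain entries but a knockout by its free-text description. The 2 Ahr probe sets read 6.74 ± 0.26 (KO) and 6.21 ± 0.10 (WT) (limma adjusted p = 0.0658), and 6.52 ± 0.23 (KO) and 6.48 ± 0.14 (WT) (n = 4 each, SD; limma adjusted p = 0.906). No source used here says whether these probe sets cover the deletion, so they do not check the labels. WT TCDD replicate 1 correlated at 0.9645 to 0.9784 with the KO arrays, against 0.9882 with WT DMSO replicate 1 and 0.9666 and 0.9637 with the WT arrays numbered 2. Irf8 read 9.13 to 10.10 on the KO arrays, against 6.92 on WT TCDD replicate 1 and 6.07 to 7.44 on the other WT arrays, and Tyrobp read 9.48 to 10.73, against 7.64 on that array and 7.50 to 7.79 on the other WT arrays. Both genes were called in a fit that counted this array as WT, so their values do not check its label. The mean level of 10 measured CD4 T cell markers was 9.64 to 9.84 in KO and 9.53 to 9.90 in WT, with 0 of them called (3.24% of genes were), and Cd4, Cd3d, Cd3e and Cd3g were among them. In Cd5 every KO array lay above every WT array (0.90 higher; limma adjusted p = 0.0644). In Il7r every KO array lay below every WT array (−0.64; limma adjusted p = 0.0794). Among genes 6.28% lay above in this way and 6.71% below.

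Markers of other cell types differed between the genotypes on the same arrays. Of 12 measured markers of plasmacytoid dendritic cells, known for making large amounts of type I interferon, 7 were called higher in KO and 0 lower (Bst2, Tcf4, Irf8, Spib, Ccr9, Klk1 and Ly6d), and their mean level was 7.83 to 8.20 in KO and 6.51 to 6.97 in WT. Of 14 markers of macrophages, monocytes and conventional dendritic cells 6 were called higher in KO and 0 lower (Cd68, Csf1r, C1qb, C1qc, Tyrobp and Mpeg1), with a mean level of 7.07 to 7.53 in KO and 6.39 to 6.55 in WT. The other 8 were not called, and 3 of them, Fcgr3, Cd14 and Vcam1, read slightly lower in KO. Of 10 natural killer and CD8 T cell markers 1, Nkg7, was called higher and 0 lower (6.57 to 6.98 in KO and 6.44 to 6.68 in WT over the list). In 3 of the 10, Cd8a, Prf1 and Eomes, every KO array lay below every WT array (6.71% of genes did). Of 9 B cell markers 0 were called (5.75 to 6.10 in KO and 5.69 to 6.04 in WT). The shares called higher in KO were 58.3%, 42.9%, 10.0% and 0.0% for these lists in order, against 1.9% of genes. The mean level of the 31 interferon response genes was 7.53 to 7.80 in KO and 7.59 to 7.90 in WT. The part of these other cells in the results below was not tested. In bulk RNA of this kind, more cells of a type and more RNA per cell cannot be told apart.

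Among the sensors, Zbp1, which recognises Z-form nucleic acids and can start inflammatory cell death, rose in KO. It read 8.02 and 7.96 on the KO TCDD arrays and 7.72 and 7.76 on the KO DMSO arrays, against 7.32 and 7.15 on the WT TCDD arrays and 7.46 and 7.39 on the WT DMSO arrays. All 4 KO arrays lay above all 4 WT arrays, with the 2 KO TCDD arrays highest. The means were 7.87 ± 0.15 in KO and 7.33 ± 0.13 in WT (n = 4 each, SD), a log2 difference of 0.54 (SE 0.10) or 1.45-fold (limma adjusted p = 0.0371). An exact permutation test, two-sided, gave p = 0.0286 for each of the 3 called members, the smallest that 70 arrangements allow. Any gene whose KO and WT arrays do not overlap gets this value, so it adds nothing to that separation. Isg20, Parp14 and Ifih1, which were not called, had it too. The difference was 0.76 between the TCDD groups and 0.32 between the DMSO groups. A second Zbp1 probe set also differed by 0.54, with a wider spread (limma adjusted p = 0.195). The call was lost when the mean of the gene's probe sets was used.

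The other sensors bind double-stranded RNA. Ifih1, or MDA5, which detects long double-stranded RNA, read lower in KO without passing the adjusted test: 8.01 and 8.08 (KO TCDD) and 8.04 and 7.68 (KO DMSO), against 8.70 and 8.43 (WT TCDD) and 8.17 and 8.62 (WT DMSO). It was the one member whose KO arrays all lay below all WT arrays. Its log2 difference was −0.53 (SE 0.14; limma adjusted p = 0.0782). Dhx58, or LGP2, a helicase that modulates MDA5, differed by −0.06 (SE 0.11).

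None of the 4 measured genes of signalling and feedback was called, and their differences ran from −0.22 (Irf9, the DNA-binding partner of Stat2) to 0.38 (Stat2). Stat2, among the 3 lowest members in level, read 6.29 and 5.97 (KO TCDD) and 6.05 and 5.40 (KO DMSO), against 5.54 and 5.60 (WT TCDD) and 5.62 and 5.44 (WT DMSO). Here KO DMSO replicate 2 lay below every WT array while the other 3 KO arrays lay above them, and the difference had an SE of 0.17 (limma adjusted p = 0.258). Stat2 passed in 1 of 19 alternatives, the one without KO DMSO replicate 2 (0.55; limma adjusted p = 0.0446). Its other probe set differed by 0.02 (limma adjusted p = 0.913). Irf7, the factor that amplifies interferon production, differed by 0.07 and Usp18, a protease that removes Isg15 from proteins and damps the receptor, by −0.21.

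The 3 Ifit genes, whose proteins bind foreign RNA and block its translation, all read lower in KO and none was called. Ifit1, which recognises RNA with an incomplete cap, read 6.20 and 6.56 (KO TCDD) and 6.16 and 5.72 (KO DMSO), against 6.53 and 6.77 (WT TCDD) and 6.84 and 7.12 (WT DMSO). One KO array, TCDD replicate 2 at 6.56, lay just above the lowest WT array, and the difference was −0.66 (SE 0.19; limma adjusted p = 0.0939). Ifit2 read 6.19 and 6.51 (KO TCDD) and 7.28 and 6.63 (KO DMSO), against 7.08 and 8.43 (WT TCDD) and 7.49 and 8.80 (WT DMSO). The WT arrays numbered 2 were the highest in both treatments. The difference was the largest of all members in size, −1.30 (SE 0.39; limma adjusted p = 0.108), and −0.63 without those arrays. It passed with the actin 3′ to 5′ difference as a covariate (limma adjusted p = 0.0153). Ifit3 differed by −0.10 (limma adjusted p = 0.621).

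**Figure D2:**
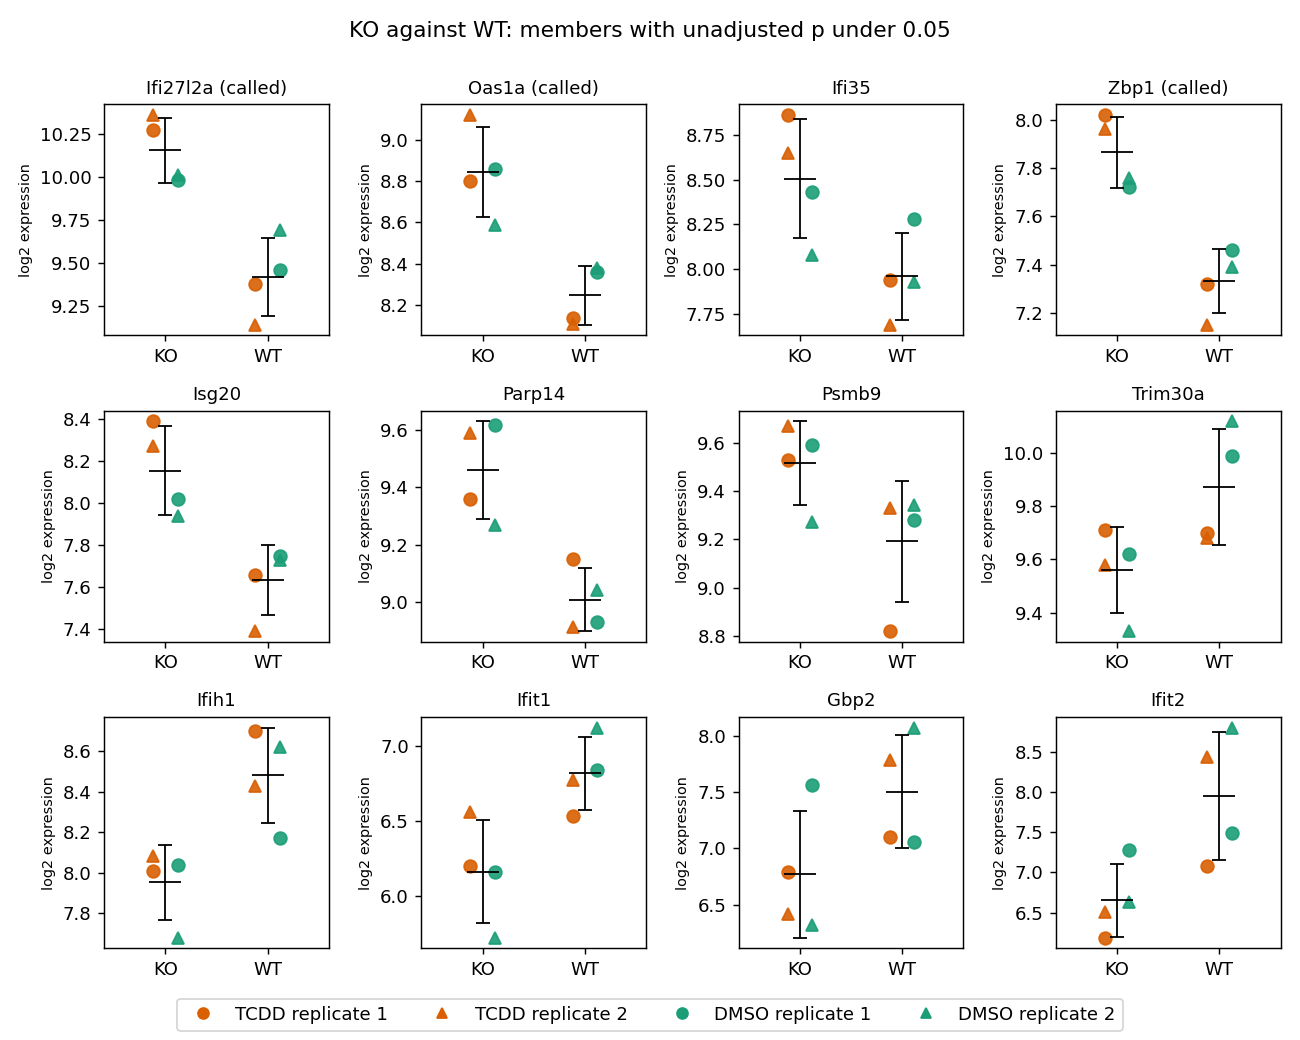
Log2 expression of the 12 members with an unadjusted p under 0.05, with KO left of WT in each panel, circles and triangles for replicates 1 and 2, colours for treatment, and bars for the mean ± SD of 4 arrays. The KO and WT arrays do not overlap in Ifi27l2a, Oas1a, Zbp1, Isg20 and Parp14 (higher in KO) and Ifih1 (lower in KO).

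The Oas enzymes make a short oligoadenylate in response to double-stranded RNA, which activates an RNA-degrading nuclease. Oas1a rose in KO, with 8.80 and 9.12 (KO TCDD) and 8.86 and 8.59 (KO DMSO), against 8.14 and 8.11 (WT TCDD) and 8.36 and 8.38 (WT DMSO). The groups did not overlap, and the 2 WT TCDD arrays were the lowest. The means were 8.84 ± 0.22 in KO and 8.25 ± 0.14 in WT (n = 4 each, SD), a difference of 0.60 (SE 0.12) or 1.51-fold (limma adjusted p = 0.0451), and it was 0.84 between the TCDD groups and 0.36 between the DMSO groups. The other 4 measured members of the family, Oas2, Oas3 and the related Oasl1 and Oasl2, differed by −0.14 to 0.05. Oasl2 had the lowest signal of the members, with 5.23, 5.57, 5.31 and 5.36 in KO (TCDD, then DMSO) and 5.39, 5.14, 5.27 and 5.47 in WT (TCDD, then DMSO). At such a level, below the median probe set level of 6.13, background compresses differences on this kind of array.

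Of the 7 other antiviral effectors, 0 were called, and Isg20 and Parp14 came nearest. Isg20, an exonuclease of single-stranded RNA, read 8.39 and 8.27 (KO TCDD) and 8.02 and 7.94 (KO DMSO), against 7.66 and 7.39 (WT TCDD) and 7.75 and 7.73 (WT DMSO). Parp14, an ADP-ribosyltransferase, read 9.36 and 9.59 (KO TCDD) and 9.62 and 9.27 (KO DMSO), against 9.15 and 8.91 (WT TCDD) and 8.93 and 9.04 (WT DMSO). In both genes every KO array lay above every WT array, so that 6 members in all had groups that did not overlap (19.4%, against 13% of genes), 5 higher in KO (6.28% of genes) and 1 lower (6.71% of genes). Their differences were 0.52 (SE 0.13; limma adjusted p = 0.0654) for Isg20 and 0.45 (SE 0.10; limma adjusted p = 0.0567) for Parp14. Both passed after another quantile normalization, with array weights and with the actin covariate.

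Trim30a, which restrains Toll-like receptor signalling, read lower in KO. Its values were 9.71 and 9.58 (KO TCDD) and 9.62 and 9.33 (KO DMSO), against 9.70 and 9.68 (WT TCDD) and 9.99 and 10.12 (WT DMSO), and only the WT DMSO arrays stood clear of the KO range. The difference was −0.31 (SE 0.13; limma adjusted p = 0.21), and −1.05 in its other probe set (limma adjusted p = 0.201), where WT TCDD replicate 2 and WT DMSO replicate 2 read 9.04 and 8.37. That second value was −0.68 without WT TCDD replicate 2 and −0.28 without both WT arrays numbered 2. Mx1, a GTPase that blocks influenza virus and is defective in most laboratory strains including C57BL/6, was near the bottom of the range at 5.52 and 5.50 (KO TCDD) and 5.39 and 5.29 (KO DMSO), against 5.23 and 5.34 (WT TCDD) and 5.39 and 5.38 (WT DMSO). The groups overlapped. Mx2, Rsad2 (viperin, which makes a chain-terminating nucleotide) and Rtp4 differed by −0.08, 0 and −0.24.

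Ifi27l2a, a small interferon-induced protein of less defined function, had the largest rise in KO. It read 10.27 and 10.36 (KO TCDD) and 9.98 and 10.01 (KO DMSO), against 9.38 and 9.14 (WT TCDD) and 9.46 and 9.69 (WT DMSO). No KO array overlapped a WT array, the KO TCDD arrays were highest and the WT TCDD arrays lowest. The means were 10.16 ± 0.19 in KO and 9.42 ± 0.23 in WT (n = 4 each, SD), a difference of 0.74 (SE 0.14) or 1.67-fold (limma adjusted p = 0.0353), with 1.06 between the TCDD groups and 0.42 between the DMSO groups. Ifi35, which modulates innate signalling, read 8.86 and 8.65 (KO TCDD) and 8.43 and 8.08 (KO DMSO), against 7.94 and 7.69 (WT TCDD) and 8.28 and 7.93 (WT DMSO). Its groups overlapped through the DMSO arrays, and its difference of 0.55 (SE 0.18) did not pass (limma adjusted p = 0.139).

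Each of the 3 calls depended on most of the arrays. In the model of 4 group means Ifi27l2a and Zbp1 passed and Oas1a did not (limma adjusted p = 0.0711), and without both WT arrays numbered 2 none of the 3 passed (limma adjusted p of 0.117 for Ifi27l2a, 0.174 for Zbp1 and 0.183 for Oas1a). From the TCDD arrays alone (2 against 2) limma called 0 members and from the DMSO arrays alone also 0. In both subsets 0 of all 22626 probe sets were called. The model of 4 group means called 161 of them, against 631 in the fit of 4 against 4 arrays. The fit without both WT arrays numbered 2 called 28. Leaving out either KO TCDD array or either WT TCDD array took every one of the 3 below the threshold, although each kept its direction. Calls over all probe sets were then 119 (KO TCDD replicate 1 out), 109 (KO TCDD replicate 2), 667 (WT TCDD replicate 1) and 126 (WT TCDD replicate 2). The call of Ifi27l2a was also lost without KO DMSO replicate 2, and when WT DMSO replicate 1 was left out (differences of 0.65 to 0.79 and limma adjusted p of 0.0516 to 0.108 over the 6 losses). That of Zbp1 was also lost without KO DMSO replicate 2, and when WT DMSO replicate 2 was left out (0.48 to 0.57; limma adjusted p of 0.052 to 0.117), and that of Oas1a without any single array except KO DMSO replicate 2 (0.50 to 0.64; limma adjusted p of 0.0652 to 0.12).

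The guanylate-binding proteins and immunity-related GTPases, which attack the vacuoles of intracellular parasites and bacteria, had 0 calls among 5 members, with 4 differences below 0. Ifi47, an immunity-related GTPase chosen for its high signal, read 9.71 and 9.81 (KO TCDD) and 10.22 and 9.65 (KO DMSO), against 9.56 and 11.33 (WT TCDD) and 10.06 and 11.01 (WT DMSO). The WT arrays numbered 2 stood above all the others, and the difference was −0.64 (SE 0.36; limma adjusted p = 0.37), and 0.04 without those arrays. Gbp2 read 6.79 and 6.42 (KO TCDD) and 7.56 and 6.32 (KO DMSO), against 7.10 and 7.78 (WT TCDD) and 7.06 and 8.07 (WT DMSO). Its difference was −0.73 (SE 0.32; limma adjusted p = 0.242), −0.31 without the WT arrays numbered 2, and −0.09 in its other probe set. Igtp (−0.19), Gbp3 (−0.03) and Irgm1 (0.12) differed less.

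The immunoproteasome subunits Psmb8 and Psmb9, which shape peptides for class I presentation, were both higher in KO without passing. Psmb9 read 9.53 and 9.67 (KO TCDD) and 9.59 and 9.27 (KO DMSO), against 8.82 and 9.33 (WT TCDD) and 9.28 and 9.34 (WT DMSO), a difference of 0.32 (SE 0.14; limma adjusted p = 0.237). Psmb8 read 10.33 and 10.40 (KO TCDD) and 10.45 and 9.95 (KO DMSO), against 9.25 and 10.32 (WT TCDD) and 9.98 and 10.31 (WT DMSO), a difference of 0.32 (limma adjusted p = 0.508). In both, WT TCDD replicate 1 was the lowest array.

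Within WT, the GTPases and the immunoproteasome subunits differed between the replicate numbers in the same direction. In 12 of 31 members (38.7%, against 24% of genes) the WT array numbered 2 read above number 1 in both treatments, and these included all 5 GTPases, both subunits, Ifit1, Ifit2, Irf9, Usp18 and Rtp4. The gap was 1.77 (TCDD) and 0.95 (DMSO) in Ifi47, 1.35 and 1.31 in Ifit2 and 0.68 and 1.01 in Gbp2, while in Zbp1 it was −0.17 and −0.07, in Oas1a −0.03 and 0.02 and in Ifi27l2a −0.24 and 0.23. Ifng, which encodes interferon gamma, ran the other way, with a gap of −0.76 (TCDD) and −2.20 (DMSO). The actin and Gapdh 3′ to 5′ differences were lowest on these same WT arrays (3.30 and 2.90 for actin, 4.35 and 3.71 for Gapdh), and the part of RNA integrity was not tested beyond the fit with actin as a covariate.

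**Figure D3:**
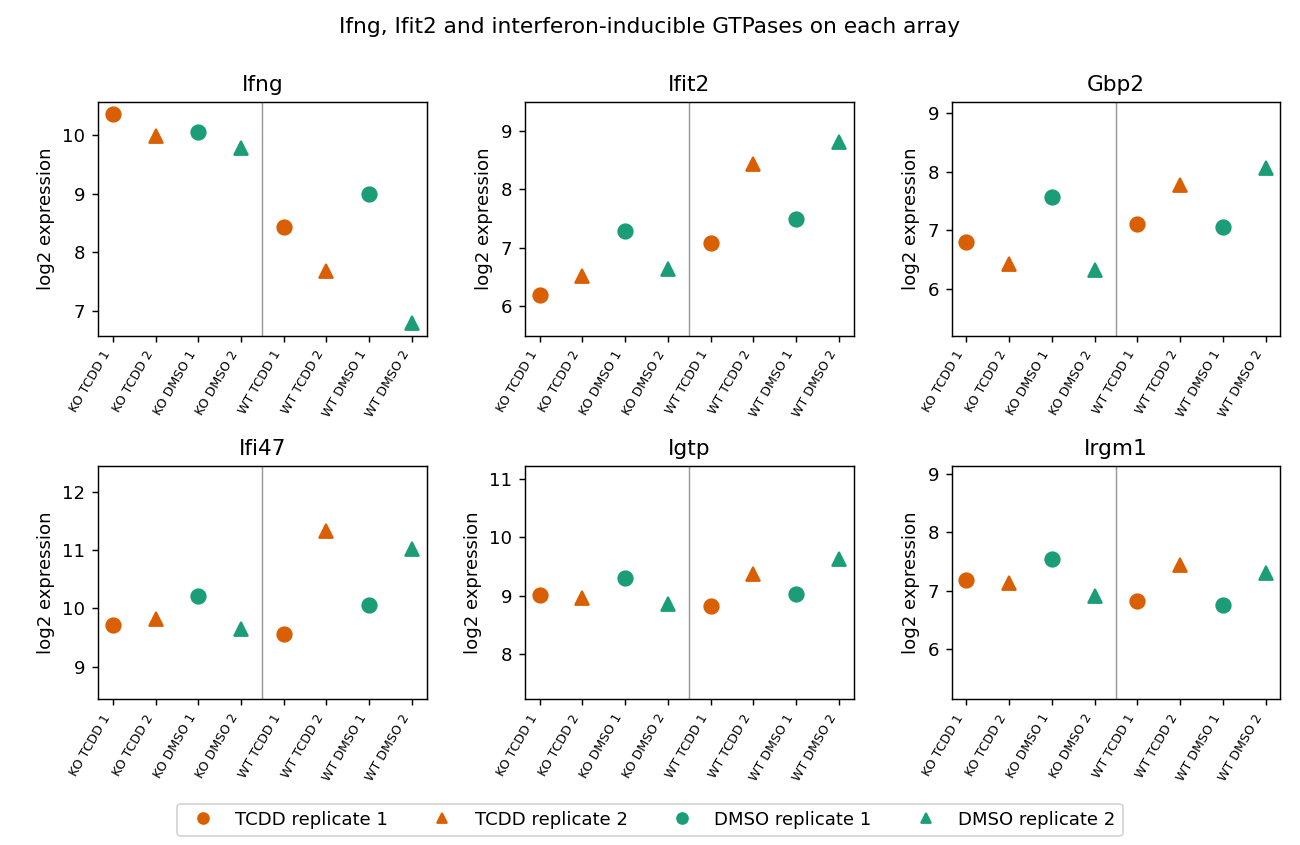
Log2 expression of Ifng, Ifit2, Gbp2, Ifi47, Igtp and Irgm1 on each array, KO left of WT, with circles for replicate 1, triangles for replicate 2 and the same height of axis in every panel. The WT triangles are above the WT circles of the same treatment in the Ifit2 and GTPase panels and below them for Ifng, whose KO arrays lie between 9.79 and 10.36.

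The wider pathway was followed through 4 lists of genes that are not members. Among 9 measured interferon ligands Ifng was the 1 call (11.1%, against 3.24% of genes), with 10.36 and 9.99 (KO TCDD) and 10.06 and 9.79 (KO DMSO), against 8.44 and 7.68 (WT TCDD) and 8.99 and 6.79 (WT DMSO), a rise of 2.08 (SE 0.41; limma adjusted p = 0.0418). The KO arrays all lay above the WT arrays, which spread widely. Of the 9 ligands 7, among them Ifnb1, had a mean below the median level of 6.13, where background compresses differences. In Ifna1, 1 of these 7, every KO array lay below every WT array (−0.305; limma adjusted p = 0.0642), as in 6.71% of genes. Among 17 receptor and signalling genes 2 rose and 1 fell (17.6% called). Irf8, a regulator of dendritic cell and monocyte development, was at 9.65 ± 0.40 in KO and 6.68 ± 0.62 in WT (2.97 higher; limma adjusted p = 0.00787). Ifnar2, a chain of the type I receptor, was at 7.71 ± 0.06 in KO and 7.25 ± 0.08 in WT (0.46 higher; limma adjusted p = 0.0234), and Irf2, a factor that binds the ISRE and can repress it, at 4.73 ± 0.09 in KO and 5.44 ± 0.09 in WT (−0.71; limma adjusted p = 0.00788; n = 4 each, SD). The Irf2 probe set lay below the median level of 6.13.

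Among 11 nucleic acid sensing genes 1 rose (9.09%, against 1.9% of genes called higher), the Toll-like receptor adaptor Myd88 (9.20 ± 0.26 in KO and 8.37 ± 0.24 in WT; 0.84 higher, limma adjusted p = 0.0381). Among 48 further interferon response genes 5 rose and 0 fell (10.4%, against the same 1.9%, a share that takes in dim probe sets). Bst2, or tetherin, which holds budding virus at the cell surface, differed most (8.76 ± 0.33 in KO and 6.94 ± 0.36 in WT; 1.82 higher, limma adjusted p = 0.00794). Ifi30, a lysosomal thiol reductase of antigen presentation, rose by 1.03, Ifitm3, which blocks virus entry, by 0.93, the peptide transporter subunit Tap2 by 0.83 and Uba7, which activates Isg15, by 0.81 (limma adjusted p of 0.011, 0.0116, 0.0447 and 0.0428 in this order). Bst2 and Irf8 also stand in the list of plasmacytoid dendritic cell markers. The median differences of the 4 lists were 0.03, 0.003, 0.12 and 0.05, against 0.005 over all genes.

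Several of these calls depended on 1 array too. With 1 array left out 109 to 667 of all probe sets were called, against 631 with all arrays. Ifnar2 was lost on leaving out any of 4 arrays (either KO TCDD array, WT TCDD replicate 2 or WT DMSO replicate 2), with limma adjusted p of 0.0601 to 0.0853. Ifng was lost without any of 6 (all but WT TCDD replicate 1 and WT DMSO replicate 1; 0.0578 to 0.122), Myd88 without any of 6 (all but WT TCDD replicate 1 and KO DMSO replicate 2; 0.0544 to 0.113), Tap2 without any of 6 (all but KO DMSO replicate 2 and WT DMSO replicate 1; 0.0547 to 0.126) and Uba7 without any of 6 (all but KO DMSO replicate 1 and WT DMSO replicate 1; 0.061 to 0.13). Irf8, Irf2, Bst2, Ifi30 and Ifitm3 passed without any single array. In the model of 4 group means Ifng (limma adjusted p = 0.103), Ifnar2 (0.0707), Myd88 (0.0946), Tap2 (0.086) and Uba7 (0.0735) did not pass and the other 5 did. Uba7 was also lost when the mean of its probe sets was used. Without both WT arrays numbered 2 Irf8 alone of the 10 passed (2.47 higher; limma adjusted p = 0.0423), in a fit that called 28 of all 22626 probe sets. Within either treatment alone none of the 10 passed, and none of the 22626 probe sets did.

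TCDD given for 24 h left no member called in either genotype. In WT the members' TCDD minus DMSO differences ran from −0.39 to 0.22, with 21 of 31 below 0 (67.7%, against 42.7% of genes), and their median was −0.10, against 0.03 over all genes (limma adjusted p = 0.997 for each). Over all 22626 probe sets limma called 0 (0% called), and 631 (2.79%) had an unadjusted p under 0.05, as had 2.99% of genes. Of the members 1, Trim30a, had one, with a difference of −0.37 (SE 0.13). The median was 0.015 without WT TCDD replicate 1, the array whose description names the knockout, and −0.005 without WT DMSO replicate 2. The 10 CD4 T cell markers had a median of −0.35 in the same comparison, and 5 of them had an unadjusted p under 0.05 (50.0%): Cd247 at −0.73, Cd5 at −0.72, Cd2 at −0.71 and Cd3d at −0.38 were below 0, and Cd4 at 0.44 above. Their part in the members' values was not tested.

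In KO the differences ran from −0.61 (Ifit2) to 0.50 (Ifi35), with 23 of 31 above 0 (74.2%, against 56.8% of genes) and a median of 0.17, against 0.03 over all genes. Limma called 0 of 31 members and 0 of 22626 probe sets (BH adjusted p of 1 after rounding for each member), and 383 probe sets (1.69%) and 1.94% of genes had an unadjusted p under 0.05. Of the members, Ifi35 (0.50, SE 0.19) and Isg20 (0.35, SE 0.13) had one. Without KO DMSO replicate 2 the median was 0.025, and without KO DMSO replicate 1 it was 0.29. All 5 GTPases were below 0 after TCDD in KO, from −0.34 to −0.07, and none had an unadjusted p under 0.05.

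**Figure D4:**
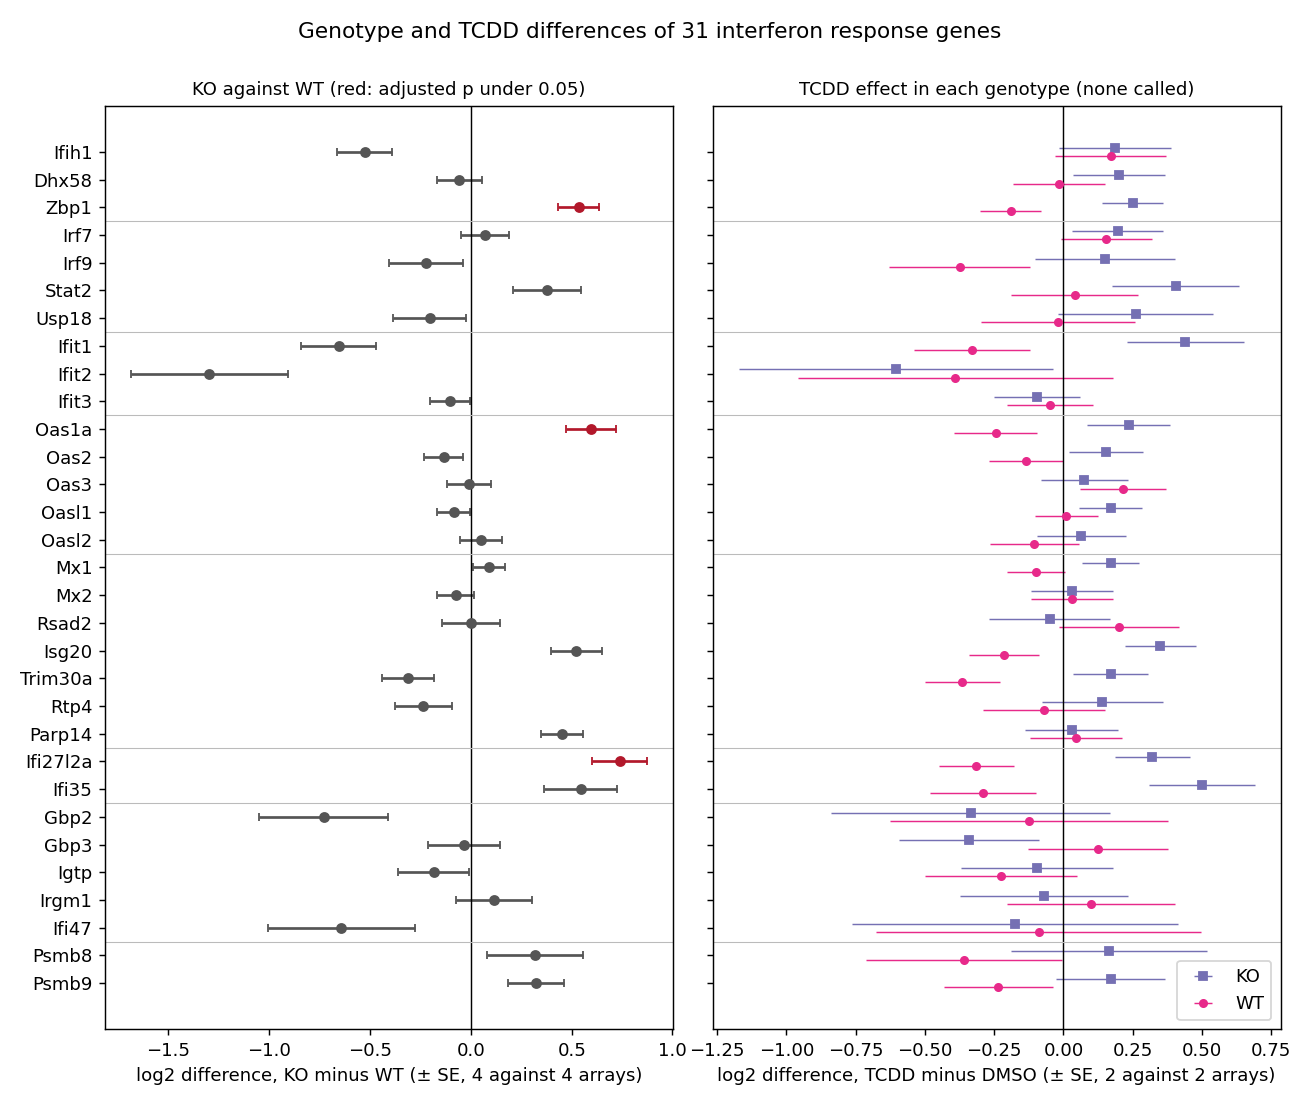
Log2 differences of the 31 members with their SE: KO minus WT on the left (4 against 4 arrays, the 3 called members in red) and TCDD minus DMSO on the right (2 against 2 arrays, squares for KO and circles for WT). The right panel has no called member, and in Ifi27l2a, Ifi35 and Isg20 the KO value lies above 0 and the WT value below.

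The difference between the TCDD effects, KO minus WT, was tested as an interaction and called in 0 of 31 members and 0 of 22626 probe sets (limma adjusted p of 0.998 to 1 for the members). Over all probe sets 628 (2.78%) had an unadjusted p under 0.05, as had 2.99% of genes. The members' median was 0.21, against 0.005 over all genes, with 21 above 0 (50.1% of genes were), 9 below and 1 (Mx2) at 0. Of the members 6 had an unadjusted p under 0.05, all above 0 (19.4%, against 2.49% of genes above 0): Ifi35 at 0.79, Ifit1 at 0.77, Ifi27l2a at 0.64, Isg20 at 0.57, Trim30a at 0.54 and Zbp1 at 0.44. None reached an unadjusted p under 0.01, the lowest being 0.0142 for Ifi27l2a. These genes share arrays and are not independent of one another. Of the 10 CD4 T cell markers 3 had an unadjusted p under 0.05, also all above 0 (30.0%; Cd2 at 1.03, Cd5 at 1 and Cd3d at 0.52), and the median of that list was 0.32. The part of these markers was not tested. The count of 6 members was 1 after another quantile normalization of the arrays and 2 with eBayes trend and robust settings. With 1 array left out it was between 2 (WT DMSO replicate 2 out) and 8 (KO DMSO replicate 1 out), and it was 3 when the array left out was either KO TCDD array, KO DMSO replicate 2 or WT DMSO replicate 1. The share over all genes is not given for these settings, so the counts have no background beside them. Leaving out 1 array moved the median to 0.065 (KO DMSO replicate 2 out) at the lowest and 0.36 (WT TCDD replicate 2 out) at the highest. With 2 arrays in each group the number of arrays limits what this comparison can show.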

How the data were processed

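RNA was amplified and hybridised to 8 Affymetrix MOE430A arrays, per the labels' protocols. The authors deposited log2 expression values made by RMA with affy, per the submitters' processing notes; versions and a genome build are not given in the sources used here. Array medians were 6.08 to 6.15. Of 22690 probe sets 64 controls were left out; of the other 22626, 20380 had 1 symbol, 691 several and 1555 none, and 20351 matched RefSeq (GRCm38.p6, the source of the promoters) by Entrez identifier. Signals of different probe sets do not rank transcript levels.

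Samples were grouped by title. KO was set against WT as 4 against 4, and TCDD against DMSO and the interaction in a model of 4 group means, with limma 3.58.1 (R 4.3.3) and BH adjustment over 22626 probe sets. P-values of KO against WT measure the spread between pools of 4 animals within a genotype, which includes any difference between treatments. In the model of 4 group means they measure the spread between pools of the same group. The labels name no processing batch. The fits were run on simulated data whose noise was independent between arrays. The WT arrays deviated together by number, so that run does not check the p-values. Alternatives were a replicate block, quantile and median scaling, a filter on dim probe sets, other eBayes settings, array weights, each array left out, other models and subsets, an actin covariate and gene means over probe sets.

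The members, lists, tests and alternatives were chosen with earlier results of these data known. Every array's value is given for members called in KO against WT or with an unadjusted p under 0.05 there, for any with one under 0.01 in a TCDD comparison (0 members), and for the 3 highest and 3 lowest in mean; called pathway genes are named, and other members given by difference, range or count.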

Additional observations from a re-analysis of the deposited data

Results flagged for a closer look

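Of 62 groups of 4 arrays examined (each member in KO and in WT), 3 (4.84%) held an array far from its group, and chance flags about 1 in 20 groups, so that the number is near what chance gives. Usp18 read 6.40 on KO DMSO replicate 2, and 6.88 to 6.94 on the other KO arrays. Gbp3 read 7.32 on KO TCDD replicate 1, and 7.92 to 7.98 on the other KO arrays. Psmb9 read 8.82 on WT TCDD replicate 1, the array whose description names the knockout, and 9.28 to 9.34 on the other WT arrays. None of these 3 genes was called in any comparison before the alternatives, among which Psmb9 passed after another quantile normalization.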

How the results depend on the processing

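Members called in KO against WT (3 in the report) numbered 6 after another quantile normalization, 0 with eBayes trend and robust settings, 5 with array weights, 6 with the actin covariate (5 higher, 1 lower), 0 from the DMSO arrays alone, 0 from the TCDD arrays alone and 0 without both WT arrays numbered 2; leaving out 1 array gave 0 to 2. The cause was not tested. No called value changed sign over 20 alternatives. Over all probe sets the count of 631 was 161 in the model of 4 group means, 985 (quantile), 1604 (array weights), 1834 (actin covariate), 28 without both WT arrays numbered 2 and 109 to 667 with 1 array left out. No label says what the numbers 1 and 2 share between groups. The correlation of the replicate differences was 0.63 between WT TCDD and WT DMSO, whose arrays deviated together by number, and −0.29 to 0.22 in the other 5 pairs of groups. With the replicate block 2 members and 801 probe sets were called in KO against WT, Oas1a being lost (limma, BH adjusted p = 0.0525), and 0 members in each TCDD comparison and the interaction. These 3 comparisons had 0 called members in each of 14 alternatives. Psmb9 passed after the quantile normalization (limma, BH adjusted p = 0.0485). The number of arrays and, for Oasl2, Mx1 and Stat2, a level under the median probe set limit what can be seen.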
